A study of Mus musculus with 4 samples.

Results

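Isolated seminiferous tubules of adult XX/Sry males were compared with those of adult W/Wv males, on 1 Affymetrix MOE 430A array for each genotype. Of 22626 mouse probe sets, 12111 were kept because the brighter of the tubule arrays was at or above that array's own median signal. The kept probe sets named 7209 of the 12393 genes on the array. The probe set nearest above that limit read 107.2 for W/Wv and 158.9 for XX/Sry, and the nearest below it 156.7 and 106.3. The values are MAS5 signals, an array intensity on a linear scale. All ratios are XX/Sry over W/Wv, and a fold is the ratio of 1 array to 1 other array, with no replicate and no test.

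The XX/Sry males carry a pair of X chromosomes and a transgene of Sry, the Y-linked gene that starts testis development in the gonad. They therefore have a testis in which germ cells with 2 X chromosomes are lost. The W/Wv males carry a pair of mutant alleles of Kit, the receptor that germ cells, mast cells and melanocytes need, and have normal sex chromosomes. They were purchased animals from a WB x B6 cross. The sources used here name no strain for the XX/Sry males, no promoter for the transgene and no number of animals per array, so genotype and strain cannot be told apart. The design text calls both kinds of male recipients, and the study asked how well the XX/Sry testis soma can support spermatogenesis. Tubules had been freed of the tunica, digested for 40 min in 5 mg/ml collagenase and washed on a 70 µm strainer to remove interstitial cells. Whole testis of each genotype, also 1 array each, is used below for context.

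A seminiferous tubule is a wall of Sertoli cells, the somatic cells that nurse germ cells, seal the tubule with tight junctions and make the fluid of its lumen. Peritubular myoid cells and a basement membrane surround it. Leydig cells, the makers of testosterone, lie outside the tubule with macrophages and vessels. Testosterone and follicle-stimulating hormone act on Sertoli cells, which in turn supply germ line stem cells with factors such as Gdnf and Kit ligand.

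The labels were checked against marker genes. Clu, a secreted protein abundant in Sertoli cells, had signals of 50416 and 38329 in W/Wv and XX/Sry tubules. Ddx4, a germ cell RNA helicase, had 69.2 and 1.8, and Prm1, a protamine of late spermatids, 23.8 and 156, both below the filter. Of the germ cell markers on the array, 14 of 21 for spermatogonia, 19 of 24 for meiosis and 21 of 23 for spermatids lay below the filter. In bulk RNA, fewer cells of a type and less RNA per cell cannot be told apart. Markers of Leydig cells were kept at lower levels than in whole testis: the median marker had 27.8% (W/Wv) and 36.5% (XX/Sry) of its whole-testis signal. Median signals were 156.75 on the W/Wv and 158.9 on the XX/Sry tubule array, and 75.3% and 69.8% of probe sets lay above the highest of 27 bacterial control probe sets, which was 46.1 and 61.0. A dimmer signal under the bound of its array gives a lower bound of the fold, written as at least, with the higher of the bounds as divisor. The 3' to 5' signal ratio was 0.823 and 0.930 for Gapdh and 1.58 and 1.85 for actin. The 18 spiked control transcripts were lower on the XX/Sry array (median log2 ratio -0.66), whereas the arrays had been scaled to the same trimmed mean.

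Of the 7209 genes, 398 were at least 2-fold higher in XX/Sry tubules (5.52%) and 295 at least 2-fold lower (4.09%); 2-fold means at least 2-fold throughout. The corresponding probe set counts were 662 higher (5.47%) and 570 lower (4.71%) of 12111. A 4-fold difference was reached by 70 genes in the higher and 33 in the lower direction, and 71.9% of genes lay within 1.5-fold. The median log2 ratio of all genes was -0.0032, and the middle 90% of genes lay between -0.93 and 1.05. Dividing each array by its spiked controls moved that median to 0.63, with 1682 genes higher and 70 lower, so that the share of higher among 2-fold genes went from 57.4% to 96.0%. That scaling adds 0.62 to every log2 ratio, so a gene between -0.62 and 0 on the deposited scale turns positive under it; lists also change members there, because the filter is applied again. Ratios below are on the deposited scale and are read against its all-gene median. Among the kept probe sets, 7.10% of the dimmest 25% were 2-fold higher and 7.0% lower, against 4.43% and 3.27% of the brightest 25%.

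**Figure D1:**
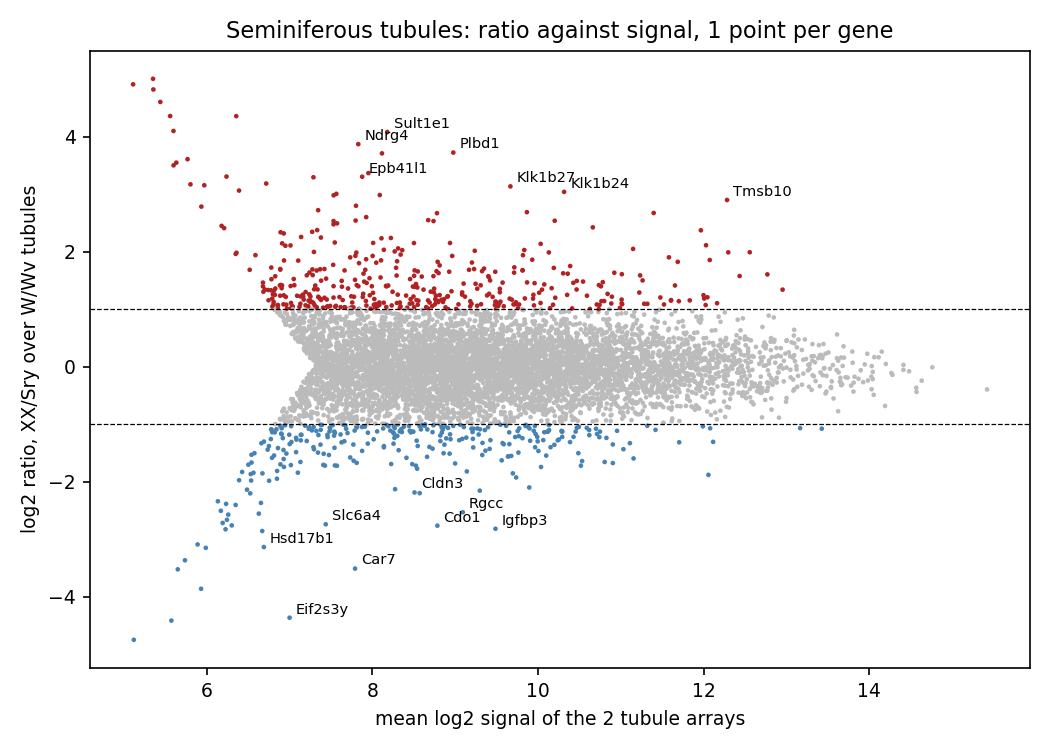
Log2 ratio of XX/Sry over W/Wv tubules (vertical) against the mean log2 signal of the tubule arrays (horizontal) for each of 7209 genes, 1 array per genotype; dashed lines mark 2-fold. The 398 genes above and 295 below the lines scatter most widely at low signal.

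Genes were ranked by the ratio after dim signals were raised to the bound. The gene highest in XX/Sry tubules was Sult1e1, an oestrogen sulfotransferase of Leydig cells, with 70.5 in W/Wv and 1192 in XX/Sry tubules (16.9-fold higher), against whole-testis signals of 426 (W/Wv) and 2151 (XX/Sry). Ndrg4, a cytoplasmic protein of the NDRG family, had 59.5 in W/Wv and 869 in XX/Sry tubules (14.6-fold higher). In whole testis Ndrg4 differed by a log2 ratio of 0.33 only (whole-testis signals of 635 (W/Wv) and 799 (XX/Sry)), and its other probe set gave 1.54 in tubules. Plbd1, a lysosomal phospholipase B-like protein, had 139 in W/Wv and 1829.8 in XX/Sry tubules (13.2-fold higher). Xist, the RNA that coats the inactive X chromosome, had 76.7 in W/Wv and 1002 in XX/Sry tubules (13.1-fold higher), which checks the label. Cbr3, a carbonyl reductase, had 77.1 in W/Wv and 794 in XX/Sry tubules (10.3-fold higher), and Epb41l1, a membrane skeleton protein, 74.8 in W/Wv and 738 in XX/Sry tubules (9.86-fold higher), although the other probe set of Epb41l1 gave a log2 ratio of 0.86. Both genes were less than 2-fold different in whole testis, at 0.74 and 0.22. Tmsb10, which binds actin monomers, was the brightest of the 15 highest genes, with 1827 in W/Wv and 13609.8 in XX/Sry tubules (7.45-fold higher). All 3 of its probe sets lay between 2.22 and 2.90.

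The other genes among the 15 highest ranged from 6.59-fold to 9.80-fold, besides the kallikreins. Pam, the enzyme that amidates peptide hormones, had 66.8 in W/Wv and 536 in XX/Sry tubules (8.02-fold higher). Oit3, a secreted zona pellucida domain protein, had 49.9 in W/Wv and 489 in XX/Sry tubules (9.80-fold higher). Pkp2, a plakophilin of desmosomes, had 65.9 in W/Wv and 519 in XX/Sry tubules (7.88-fold higher), while in whole testis it was lower in XX/Sry, at a log2 ratio of -0.97 (whole-testis signals of 179.8 (W/Wv) and 91.7 (XX/Sry)). Slc39a8, a zinc and manganese importer, had 63.3 in W/Wv and 417 in XX/Sry tubules (6.59-fold higher). Ncmap, a myelin-associated protein, had 96.8 in W/Wv and 765 in XX/Sry tubules (7.91-fold higher). In each of these 5 genes the W/Wv signal lay below the array median and the XX/Sry signal above it. The same held for Sult1e1, Ndrg4, Plbd1, Xist, Cbr3 and Epb41l1. All of these passed the filter only through XX/Sry, where they were high. Among genes named below, Kit, Vegfa, Wnt5a, Cldn4 and Sfrp1 also share this limit.

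Glandular kallikreins, secreted serine proteases that lie side by side on chromosome 7 and are known from Leydig cells and salivary glands, made up 3 of the 15 highest genes. Klk1b27 had 274 in W/Wv and 2408 in XX/Sry tubules (8.78-fold higher), Klk1b24 445 in W/Wv and 3652 in XX/Sry tubules (8.22-fold higher), and Klk1 84.6 in W/Wv and 588 in XX/Sry tubules (6.95-fold higher). Klk1b21 had 489 in W/Wv and 2837 in XX/Sry tubules (5.80-fold higher) and Klk1b16 7.2 in W/Wv and 231 in XX/Sry tubules (at least 3.79-fold higher). All 5 of the 10 kallikreins on the array that were kept were at least 2-fold higher. Their median log2 ratio was 3.04, or 2.80 with Klk1b16 at its bound, against -0.0032 for all genes. Klk1 and Klk1b16 lay under the W/Wv array median and passed the filter only through XX/Sry, where they were high. The 5 below the filter went both ways. Klk1b11 (92.7 in W/Wv and 37.9 in XX/Sry) was dimmer in XX/Sry. Klk1b1 (29.0 and 101.6), Klk1b5 (37.2 and 58.4), Klk1b8 (40.4 and 126.7) and Egfbp2 (63.5 and 97.3) were brighter. Near-identical copies of a gene can share probe signal, so the members may not be independent measurements; the probed transcripts were not compared here. The regions before the start sites of 3 of them are shown because the genes were higher together. The 250 bases upstream of each are given from RefSeq (GRCm38.p6, plus strand), with the 89-base run that all 3 share in capitals: Klk1b21 at chr7:44102042-44102291, Klk1b24 at chr7:44187986-44188235 and Klk1b27 at chr7:44052040-44052289.
Klk1b21: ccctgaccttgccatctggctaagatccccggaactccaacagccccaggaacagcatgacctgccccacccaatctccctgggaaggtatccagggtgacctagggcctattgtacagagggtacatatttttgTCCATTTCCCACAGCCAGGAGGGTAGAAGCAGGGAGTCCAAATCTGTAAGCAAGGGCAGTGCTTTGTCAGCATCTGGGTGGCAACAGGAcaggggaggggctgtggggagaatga
Klk1b24: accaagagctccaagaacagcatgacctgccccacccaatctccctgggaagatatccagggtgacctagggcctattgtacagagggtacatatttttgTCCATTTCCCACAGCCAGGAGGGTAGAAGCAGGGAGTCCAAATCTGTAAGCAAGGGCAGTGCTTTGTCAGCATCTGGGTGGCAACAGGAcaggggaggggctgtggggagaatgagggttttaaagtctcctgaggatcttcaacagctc
Klk1b27: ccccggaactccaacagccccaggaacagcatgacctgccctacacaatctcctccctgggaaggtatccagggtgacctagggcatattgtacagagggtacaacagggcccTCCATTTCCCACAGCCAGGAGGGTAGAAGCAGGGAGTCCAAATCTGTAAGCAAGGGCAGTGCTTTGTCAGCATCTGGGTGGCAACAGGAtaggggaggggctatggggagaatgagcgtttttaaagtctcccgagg
The 89-base run occurred in 3 of 32851 promoter windows of the table, those of these 3 genes. Klk1b21 and Klk1b24 had the same base at 210 of 215 aligned positions (97.7%).

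The gene lowest in XX/Sry tubules was Car7, a cytosolic carbonic anhydrase, with 747 in W/Wv and 65.6 in XX/Sry tubules (11.4-fold lower), against whole-testis signals of 394 (W/Wv) and 227 (XX/Sry). Eif2s3y, a Y-linked translation factor, had 580.3 in W/Wv and 28.2 in XX/Sry tubules (at least 9.51-fold lower), and all 3 kept Y genes were lower, which also checks the label. Sry itself lay under the bounds of both tubule arrays (22.7 and 19) and does not tell them apart. Its whole-testis signals were 23.7 (W/Wv) and 170.2 (XX/Sry). Below the filter, Uty and Usp9y were dimmer in XX/Sry tubules, and Zfy2 was brighter but under the bounds. Igfbp3, a binding protein that holds insulin-like growth factors, had 1904 in W/Wv and 270.2 in XX/Sry tubules (7.05-fold lower). Cdo1, which starts the breakdown of cysteine to taurine, had 1149 in W/Wv and 169 in XX/Sry tubules (6.79-fold lower), and its log2 ratio in whole testis was -0.48. Slc6a4, the serotonin transporter, had 447 in W/Wv and 67.0 in XX/Sry tubules (6.68-fold lower). Rgcc, a regulator of the cell cycle, had 1311 in W/Wv and 227 in XX/Sry tubules (5.77-fold lower). Hsd17b1, which makes oestradiol from oestrone, had 306 in W/Wv and 34.8 in XX/Sry tubules (at least 5.01-fold lower).

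Fzd7, a Wnt receptor, had 815 in W/Wv and 178 in XX/Sry tubules (4.59-fold lower). Cldn3, a claudin of Sertoli tight junctions that responds to androgen, had 777 in W/Wv and 171 in XX/Sry tubules (4.55-fold lower), while in whole testis its signal was the higher one in XX/Sry (whole-testis signals of 351 (W/Wv) and 646 (XX/Sry)). Its 4 probe sets in tubules lay between -2.94 and -0.60. Alcam, a cell adhesion molecule, had 1327 in W/Wv and 298 in XX/Sry tubules (4.45-fold lower), Dst, a cytoskeletal linker, 647 in W/Wv and 148 in XX/Sry tubules (4.37-fold lower), and Ints6l, an Integrator-related protein, 1970.0 in W/Wv and 459.7 in XX/Sry tubules (4.29-fold lower). Ints6l was almost equal in whole testis, at a log2 ratio of 0.11. The remaining 3 of the 15 lowest genes, Clasrp, Sars2 and Stap2, had XX/Sry signals of 37.8, 40.8 and 16.0, under the bound of 61.0 on that array, so their folds are lower bounds of 4.49, 3.93 and 3.81.

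Sertoli cell genes were within 2-fold about as often as genes in general, of which 90.4% were neither 2-fold higher nor lower. Of 13 kept genes of Sertoli identity, among them the transcription factors Sox9 and Gata4, needed for Sertoli cell development, 1 was 2-fold higher, 0 2-fold lower and 12 neither (median log2 ratio -0.03). Sox9 had a log2 ratio of -0.56 and Gata4 of -0.68. The higher one was Ptgds, prostaglandin D synthase, with 3026 in W/Wv and 12009.5 in XX/Sry tubules (3.97-fold higher). In whole testis Ptgds had 13899.7 (W/Wv) and 11904.4 (XX/Sry), a log2 ratio of -0.22. Its W/Wv tubule signal thus lay below its W/Wv whole-testis signal, whereas the XX/Sry signals were close. The cell source of Ptgds was not tested. Of 22 Sertoli products, 1 was 2-fold higher, 1 2-fold lower and 20 neither, at a median of -0.27, with 16 of 22 below 0. Clu had a signal ratio below 1 (50416 and 38329), and Wnt5a, a secreted Wnt ligand, had 78.6 in W/Wv and 313 in XX/Sry tubules (3.98-fold higher). Of 15 genes that respond to androgen in Sertoli cells, 0 were 2-fold higher, 1 2-fold lower and 14 neither, at a median of -0.45 in tubules and 0.31 in whole testis. Cldn3 was the lower one, and Rhox5, the homeobox gene known as an androgen target, had a log2 ratio of 0.14. The median gene of that list had 171% (W/Wv) and 106% (XX/Sry) of its whole-testis signal; whether this recovery bears on the ratio was not tested. With spiked control scaling the medians are 0.59 for Sertoli identity, 0.35 for Sertoli products and 0.16 for the androgen list.

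Of 21 kept junction genes, 1 was 2-fold higher, 3 2-fold lower and 17 neither, at a median of -0.30 (0.32 with spiked control scaling). Besides Cldn3 these were Gja1, the gap junction protein connexin 43, with 13304 in W/Wv and 6345 in XX/Sry tubules (2.10-fold lower), and Jam2, a junctional adhesion molecule, with 2543 in W/Wv and 1163 in XX/Sry tubules (2.19-fold lower). Cldn4, another claudin, had 83.5 in W/Wv and 177 in XX/Sry tubules (2.12-fold higher). The mean of all probe sets of Gja1 gave a log2 ratio of -0.86, under 2-fold.

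Among 15 kept niche factors and receptors, 3 were 2-fold higher, 2 2-fold lower and 10 neither, at a median of 0.14. Kit had 139 in W/Wv and 569 in XX/Sry tubules (4.09-fold higher), against whole-testis signals of 256 (W/Wv) and 893 (XX/Sry). It is the gene mutated in W/Wv. Vegfa, the vascular growth factor, had 64.4 in W/Wv and 232 in XX/Sry tubules (3.59-fold higher), and Wnt6 had 402 in W/Wv and 857 in XX/Sry tubules (2.13-fold higher). Cxcr4, the receptor for the chemokine Cxcl12, had 486 in W/Wv and 192 in XX/Sry tubules (2.53-fold lower). Gdnf, which keeps spermatogonial stem cells, had 283 and 159.9, a log2 ratio of -0.82, and Kitl, the ligand of Kit, had a log2 ratio of -0.41. On chromosome 5, where Kit lies, 3.81% of kept genes were 2-fold higher and 4.45% lower, against 5.52% and 4.09% of all genes. Of 16 kept neighbours of Kit, 8 on each side, none was 2-fold higher and 3 were 2-fold lower. Their ratios ran from -1.12 to 0.51. The next gene, Pdgfra, a growth factor receptor, was among them with 1836 in W/Wv and 847 in XX/Sry tubules (2.17-fold lower), and it was higher in XX/Sry whole testis (whole-testis signals of 1181 (W/Wv) and 2526 (XX/Sry)). Sult1e1 lies on the same chromosome, as the 15th kept gene after Kit of 472 there.

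Leydig cell genes stood higher in XX/Sry tubules. Of 12 kept, 6 were 2-fold higher, 1 2-fold lower and 5 neither, at a median log2 ratio of 0.82 in tubules and 0.83 in whole testis. Star, which brings cholesterol into mitochondria, had 1247 in W/Wv and 2898 in XX/Sry tubules (2.32-fold higher). Hsd3b1 had 1389 in W/Wv and 4172 in XX/Sry tubules (3.0-fold higher) and Hsd17b3, which makes testosterone, 361 in W/Wv and 1139.8 in XX/Sry tubules (3.16-fold higher). Cyp17a1, the enzyme that turns progestogens into androgens, had 4989 in W/Wv and 12622 in XX/Sry tubules (2.53-fold higher). Cyp11a1, which cuts the cholesterol side chain, had a log2 ratio of 0.42. Vcam1, an adhesion molecule, had 831 in W/Wv and 2281 in XX/Sry tubules (2.75-fold higher) at its brightest probe set, but its probe sets ranged from -0.30 to 1.46. The summed signal of the list was 25149.8 for W/Wv and 43122 for XX/Sry. Of the 12, 2 lay below 0, Pdgfra at -1.12 and Nr4a1 at -0.53. The median Leydig marker had 27.8% (W/Wv) and 36.5% (XX/Sry) of its whole-testis signal. These shares and the ratios use the same tubule signals, so they are not separate measurements. The part of this recovery in the ratios was not tested. Of 19 cholesterol synthesis genes, 2 were 2-fold higher, 0 2-fold lower and 17 neither, at a median of 0.34, with Sc5d at 1.27, Fdft1 at 1.05 (0.78 as the mean of its probe sets) and Dhcr7 at 0.96.

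The matrix and macrophage lists had medians below 0 on the deposited scale, whereas with spiked control scaling the matrix median is 0.13 and the macrophage median -0.17. Of 27 kept basement membrane and matrix genes, 1 was 2-fold higher, 8 2-fold lower and 18 neither, at a median of -0.48 in tubules and 0.31 in whole testis. Col1a1, a fibrillar collagen chain, had 259.7 in W/Wv and 72.4 in XX/Sry tubules (3.59-fold lower), while in whole testis it was higher in XX/Sry (whole-testis signals of 197 (W/Wv) and 525 (XX/Sry)). Col5a1 had 213 in W/Wv and 65.8 in XX/Sry tubules (3.24-fold lower), Lum, a collagen-binding proteoglycan, 189.5 in W/Wv and 71.1 in XX/Sry tubules (2.67-fold lower), and Mgp, an inhibitor of calcification, 2109 in W/Wv and 850.2 in XX/Sry tubules (2.48-fold lower). Fbln1, a fibulin, was the gene at 2-fold higher, at a log2 ratio of 1.0. In all, 10 of the 27 lay above 0 and 17 below. Above 0 were Col4a1 at 0.42, Col4a2 at 0.63, Col4a3 at 0.36 and Nid1 at 0.48, among others. The laminin chains Lama1, Lama2, Lamb1, Lamb2 and Lamc1 lay below 0, between -1.11 and -0.40. The median matrix gene kept 86.6% (W/Wv) and 62.4% (XX/Sry) of its whole-testis signal. Of 13 macrophage genes, 0 were 2-fold higher, 4 2-fold lower and 9 neither, at a median of -0.58 in tubules and 0.34 in whole testis. C1qa, a subunit of complement C1q, had 455 in W/Wv and 175 in XX/Sry tubules (2.60-fold lower), Cd68 160.2 in W/Wv and 63.7 in XX/Sry tubules (2.51-fold lower) and Ctss, a lysosomal protease, 719.5 in W/Wv and 353 in XX/Sry tubules (2.04-fold lower). The XX/Sry signal of Cd68 was close to the bound of 61.0. Of the 13 genes, 10 lay below 0, among them C1qb at -0.30. Above 0 were 3: Mpeg1 at 0.59, Mrc1 at 0.17 and Cd14 at 0.11. The summed signal of the list was 9540.6 for W/Wv and 9102.6 for XX/Sry. The median macrophage gene kept 39.0% (W/Wv) and 19.2% (XX/Sry) of its whole-testis signal. How far this carry-over bears on the ratios was not tested. The 13 kept peritubular myoid genes showed 0 were 2-fold higher, 0 2-fold lower and 13 neither (median 0.09), and 12 endothelial genes 1 was 2-fold higher, 0 2-fold lower and 11 neither, with Emcn, an endothelial sialomucin, at 1.20.

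The list of immediate early genes, which cells induce within minutes of a stimulus such as tissue handling, and of heat shock genes had a median below 0 on the deposited scale, which is 0.29 with spiked control scaling. Of 24 kept, 1 was 2-fold higher, 6 2-fold lower and 17 neither, at a median of -0.32. Split by role after the values were seen, the 17 immediate early genes held all 6 lower ones, with a median of -0.53, and the 7 heat shock genes ran from -0.21 to 1.29, with a median of 0.55. Fos had 5265 in W/Wv and 2117 in XX/Sry tubules (2.49-fold lower), Btg2, an antiproliferative factor, 1060.3 in W/Wv and 300.2 in XX/Sry tubules (3.53-fold lower), Gadd45g, a stress sensor, 1371 in W/Wv and 466 in XX/Sry tubules (2.94-fold lower), and Dusp1, a phosphatase of MAP kinases, 1383 in W/Wv and 584 in XX/Sry tubules (2.37-fold lower). Hspa1b, an inducible Hsp70, was the higher one, with 662 in W/Wv and 1614 in XX/Sry tubules (2.44-fold higher). The median gene of this list, both roles pooled, stood at 169% of whole testis in W/Wv and 161% in XX/Sry tubules. Single genes differed from that. Whole-testis signals in W/Wv and XX/Sry were 283.2 and 216.3 for Fos, 515.4 and 320.6 for Btg2, and 440.1 and 510.5 for Gadd45g. Those of Hspa1b were 494.5 and 557.1. How far the change from whole testis to tubules bears on the ratios was not tested. The 200 bases upstream of 3 of these genes are given from RefSeq (GRCm38.p6, written in the direction of transcription), with TGACGT, or its reverse complement, in capitals: Fos at chr12:85473690-85473889 (plus strand), Dusp1 at chr17:26508473-26508672 (minus strand) and Btg2 at chr1:134079156-134079355 (minus strand). TGACGT is the core of the site bound by CREB and ATF factors.
Fos: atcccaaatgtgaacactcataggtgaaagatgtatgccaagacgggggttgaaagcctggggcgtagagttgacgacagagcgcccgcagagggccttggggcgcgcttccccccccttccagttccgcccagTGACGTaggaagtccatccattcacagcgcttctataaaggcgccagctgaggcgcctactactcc
Dusp1: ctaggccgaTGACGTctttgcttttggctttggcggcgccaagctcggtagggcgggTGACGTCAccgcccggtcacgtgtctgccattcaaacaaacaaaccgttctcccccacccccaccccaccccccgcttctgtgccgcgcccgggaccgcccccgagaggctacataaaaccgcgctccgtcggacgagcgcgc
Btg2: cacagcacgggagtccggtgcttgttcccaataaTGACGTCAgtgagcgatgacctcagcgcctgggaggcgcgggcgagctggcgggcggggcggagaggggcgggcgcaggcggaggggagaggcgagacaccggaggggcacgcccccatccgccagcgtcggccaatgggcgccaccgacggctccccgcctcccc
Overlapping matches are printed as 1 capital run. Of the 5 2-fold lower genes of the list with a window, these 3 held the motif, as did 1 of 15 other kept genes of the list, counting any window of a gene. Over all genes with a window, 1789 of 27025 held it in any of theirs (6.62%), and by window 1923 of 32851 did (5.85%). The windows shown are those of the lower genes that held the motif, and Junb and Gadd45g, also lower, did not hold it. The 15 other genes include heat shock genes, so the counts do not compare like with like, and enrichment was not tested. A match is a description of the sequence, not of binding.

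Few germ cell markers were kept. Of 7 kept spermatogonial genes, 1 was 2-fold higher, 3 2-fold lower and 3 neither. The higher one was Kit, the gene mutated in W/Wv. Morc1, Id4 and Sall4 were lower (3.26-fold, 2.93-fold and at least 2.66-fold), with Sall4, a stem cell transcription factor, at 162 and 45.6. For Id4 the W/Wv signal was 1401 in tubules against 725 in whole testis. Its XX/Sry signals there were 478 and 269. Whether the Kit and Id4 signals come from germ cells was not tested. Dazl, an RNA-binding protein of germ cells, had a log2 ratio of -0.24. Of 5 meiotic genes kept, none was 2-fold different. Of 30 cell cycle genes on the array 15 were kept, of which 0 were 2-fold higher, 4 2-fold lower and 11 neither (median -0.34), the lower ones being Rfc5, Pole, Cdc20 and Mcm7.

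In other pathways some members reached 2-fold. Of 20 kept Wnt pathway genes, 4 were 2-fold higher, 2 2-fold lower and 14 neither: Sfrp1 (3.11-fold higher, 85.7 and 266) and Frzb (2.79-fold higher) are secreted Wnt inhibitors, and Porcn, which acylates Wnt ligands, was 2.45-fold lower. Of 11 genes of the insulin-like growth factor system, 1 was 2-fold higher, 2 2-fold lower and 8 neither, with Igf1r, the receptor, 2.07-fold lower and Igfbp5 2.08-fold higher. Rxra and Rara, retinoid receptors, were 3.35-fold and 3.30-fold lower, whereas Rdh11, a retinol dehydrogenase, was 2.66-fold higher. Of 26 genes for phagocytosis and lysosomes, 5 were 2-fold higher, 2 2-fold lower and 19 neither, at a median of 0.41. Ctsz had 462 in W/Wv and 1528 in XX/Sry tubules (3.31-fold higher). Gas6 and Mfge8, bridges between dying cells and their eaters, were 2.20-fold and 2.10-fold higher. The 2 lower genes were Tyro3 at a log2 ratio of -1.08 and Ctss at -1.03. Below 0 lay 8 of the 26, among them also Mertk at -0.52 and Axl at -0.50. Of 17 interferon and MHC genes, 2 were 2-fold higher, 1 2-fold lower and 14 neither: Tap1, the peptide pump, was 3.41-fold higher, H2-K1 had 2661 in W/Wv and 6295 in XX/Sry tubules (2.37-fold higher), with a mean over its probe sets of 0.78 on the log2 scale, under 2-fold, and H2-Eb1, a class II chain, had 696 in W/Wv and 235 in XX/Sry tubules (2.96-fold lower). The 32 kept respiratory chain genes had 0 were 2-fold higher, 0 2-fold lower and 32 neither (median 0.17). Epcam, an epithelial adhesion molecule, and Lcn2, a lipocalin, were 3.09-fold and 2.31-fold higher. They were the 2 kept genes of 16 duct markers on the array. The other 14 lay below the filter and went both ways. Lcn8 (87.1 and 29.1) and Pax8 (88.8 and 43.7) were dimmer in XX/Sry. So were Lcn5, Defb1, Adam7, Adam28, Cst11 and Hoxa11, and all these XX/Sry signals lay under the bound of 61.0. The keratins Krt18 (90.4 and 144.1), Krt8 (43.3 and 88.6), Krt19 (5.6 and 64.1) and Krt7 (10.5 and 47.1) were brighter in XX/Sry, as were Aqp1 and Cdh16. In whole testis Epcam had a log2 ratio of -0.42.

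**Figure D2:**
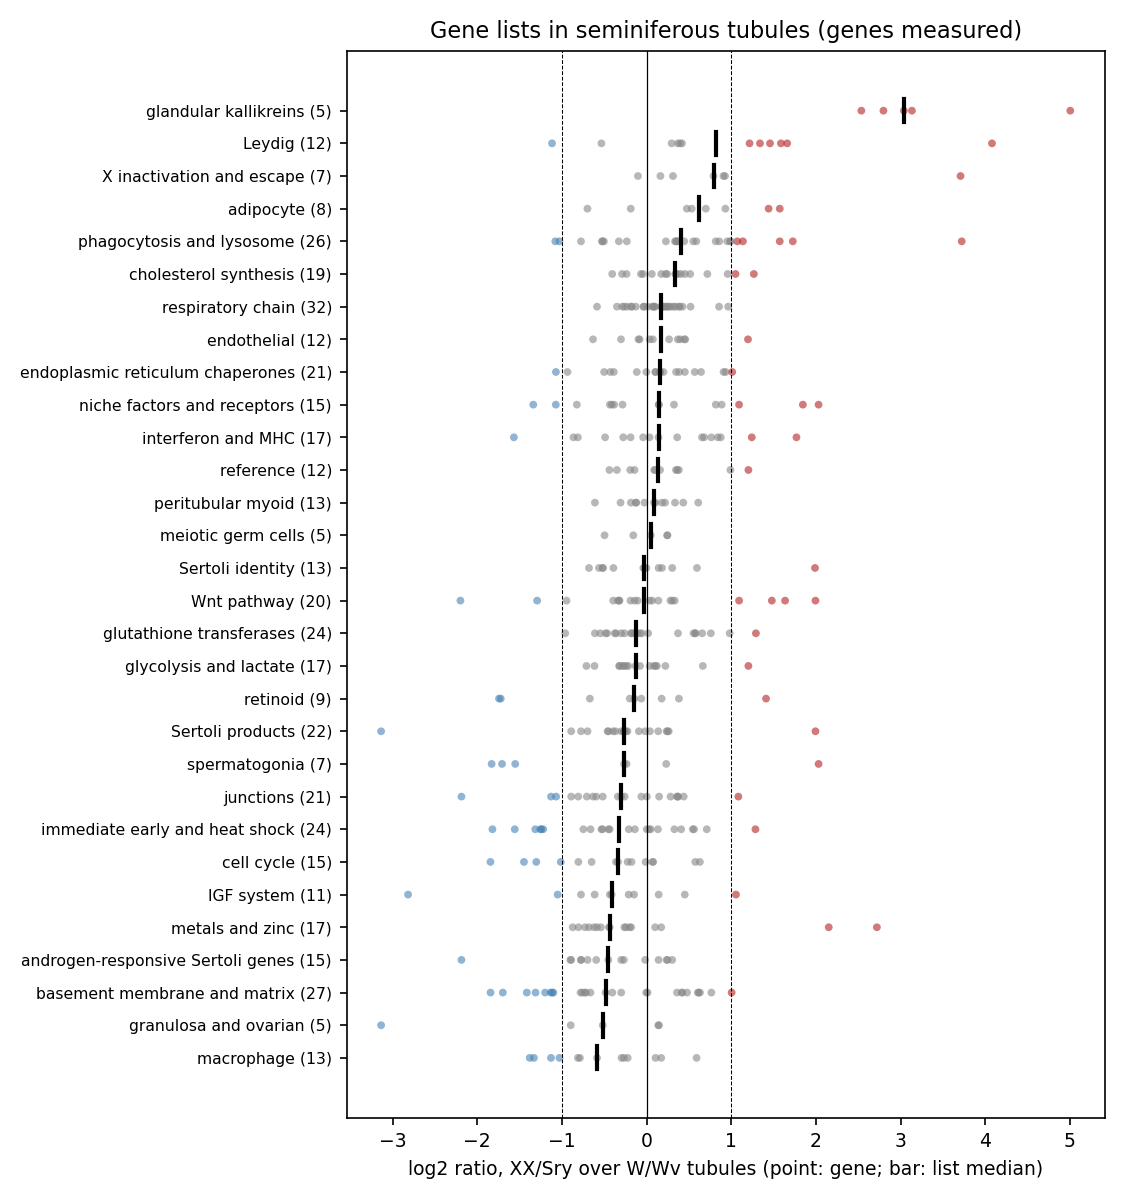
Log2 ratio of XX/Sry over W/Wv tubules for each kept gene (points) and the median (bars) of each list with at least 4 kept genes, ordered by median; dashed lines mark 2-fold and the number kept is in brackets. Kallikreins have the highest median, at 3.04 (2.80 with Klk1b16, the point at 5.0, at its bound), and macrophage genes the lowest, at -0.58.

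Among 6832 genes kept in both preparations, 336 were 2-fold higher in XX/Sry tubules and 283 were 2-fold higher in XX/Sry whole testis (4.14%); 84 were in both, 25% of the first and 29.7% of the second. The preparations were read on separate arrays, and no source used here says whether the animals were the same. In tubules 250 were 2-fold lower, and in whole testis 243 (3.56%), with 42 in both (16.8% and 17.3%). Of the 336 higher genes, 267 had a ratio above 0 in whole testis, with a median log2 ratio of 0.53 there, and of the 250 lower genes 187 lay below 0, with a median of -0.44. A 2-fold difference in opposite directions was found for 3 of the higher and 9 of the lower genes.

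**Figure D3:**
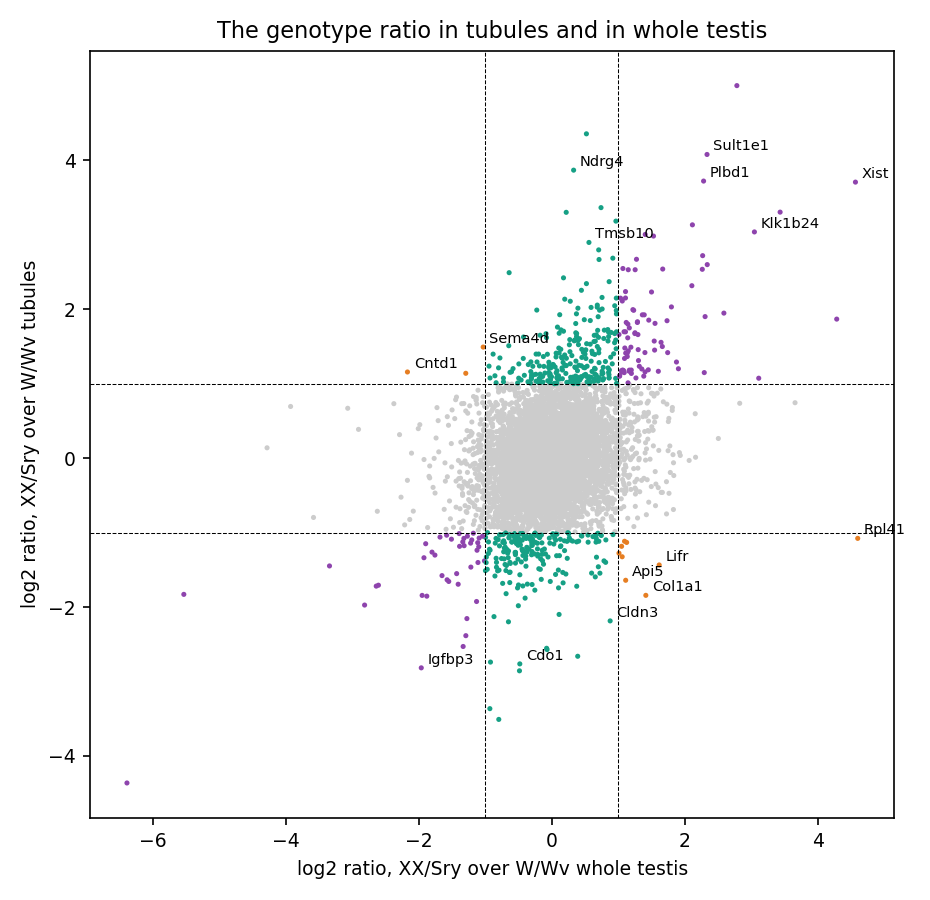
Log2 ratio of XX/Sry over W/Wv in tubules (vertical) against whole testis (horizontal) for 6832 genes, 1 point per gene, with dashed 2-fold lines; orange points are 2-fold in opposite directions, purple in the same and green in tubules alone. Most genes that are 2-fold different in tubules lie between the lines in whole testis, and 12 are 2-fold different the other way.

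The median of genes on the X chromosome lay above that of every autosome. Of 224 kept X genes, 67.0% had a ratio above 0, with a median log2 ratio of 0.19, 20 at least 2-fold higher (8.93%) and 6 lower (2.68%). Autosomes had medians between -0.08 and 0.03, and 41.0% to 55.1% of genes above 0. The whole testis median of X genes was 0.11. Chromosomes 15 and 6 had 9.12% and 8.13% of genes 2-fold higher. The share for X lay between them. The genotypes differ in X chromosome number, XX against XY. Strain may differ too, since none is named for the XX/Sry males, and its part in the shift cannot be told apart.

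**Figure D4:**
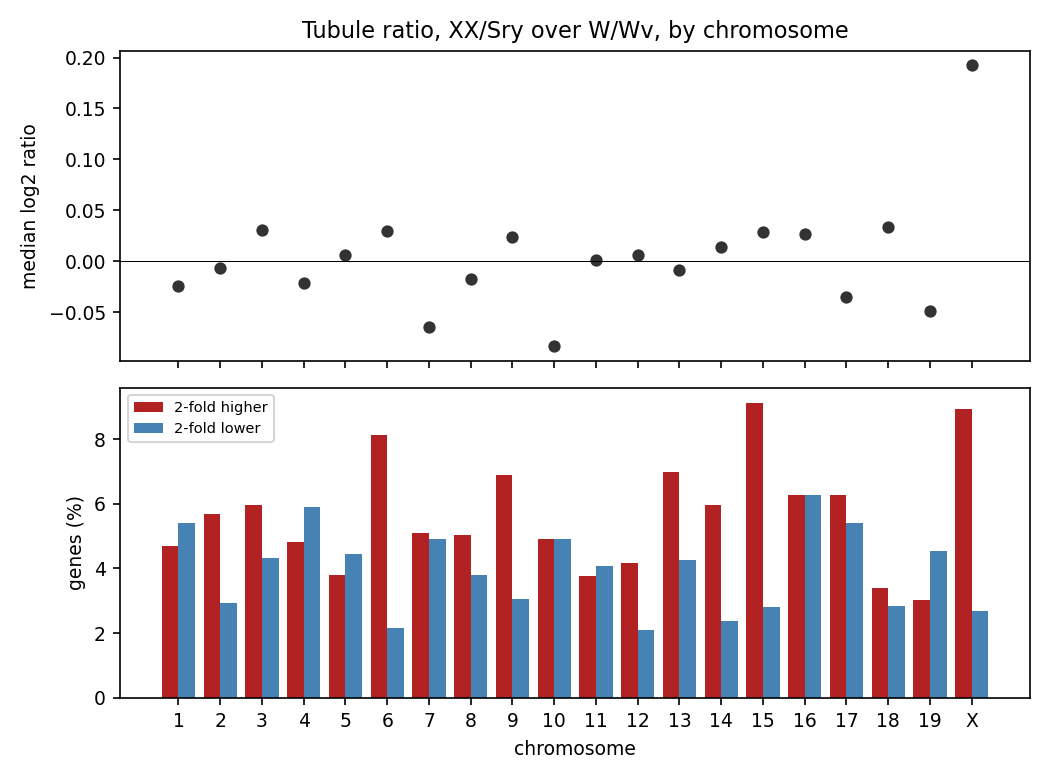
Median log2 ratio of XX/Sry over W/Wv tubules for kept genes of each chromosome, with the share of genes at least 2-fold higher and lower. The X chromosome has a median of 0.19, outside the autosome range of -0.08 to 0.03.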

How the data were processed

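The authors deposited MAS5 signals, an intensity per probe set that is not logged, per the labels and the submitters' processing notes; 4 arrays of 1 sample each were hybridised for 16 h. No rescaling was applied to them, and 0 columns stayed unused. The 64 control probe sets among 22690 were left out. The platform annotation gave 1 symbol to 20380 of 22626 probe sets, several to 691 and none to 1555, and the RefSeq table changed 0 symbols. A gene is represented by its kept probe set with the highest mean log2 tubule signal. Ratios and counts were computed with Python 3.11.15, pandas 2.3.3 and numpy 2.4.6, and checked on simulated data. No test was possible with 1 array a group. Named genes were the 15 highest and 15 lowest, up to 4 members per list by size of ratio with up to 2 of its first 4 entries, up to 6 genes on each side that were 2-fold the other way in whole testis, and Kit, Xist and Eif2s3y; a few others were named after their values were seen. The members and the 36 gene lists were chosen with earlier results of these data known. Alternatives were other scalings, an added constant of 50, other filters and the mean over probe sets.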

Additional observations from a re-analysis of the deposited data

Results flagged for a closer look

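These genes differed 2-fold in opposite directions in the preparations, in a list of 12 such genes; the values are log2 ratios of XX/Sry over W/Wv, and the difference itself was not tested. Higher in XX/Sry tubules and lower in XX/Sry whole testis were Sema4d, a semaphorin (1.49 in tubules and -1.03 in whole testis), Cntd1, a cyclin-domain protein of meiosis (1.16 in tubules and -2.17 in whole testis), and Poldip3 (1.14 in tubules and -1.29 in whole testis), whose mean over its probe sets in tubules was 0.51. Lower in XX/Sry tubules and higher in XX/Sry whole testis were Col1a1 (-1.84 in tubules and 1.42 in whole testis), Api5, an inhibitor of apoptosis (-1.64 in tubules and 1.11 in whole testis), Lifr, the receptor of leukaemia inhibitory factor (-1.43 in tubules and 1.62 in whole testis), whose mean over its probe sets in tubules was -0.88, Ctnnd1, a catenin (-1.32 in tubules and 1.06 in whole testis), and Lipg, an endothelial lipase (-1.28 in tubules and 1.01 in whole testis). Rpl41, a ribosomal protein, had the widest gap (-1.08 in tubules and 4.60 in whole testis): its signals were 16005 and 7584 in W/Wv and XX/Sry tubules and 978 and 23762 in whole testis, so that the W/Wv whole testis array stood apart from the other 3. In tubules the 3 kept probe sets of Rpl41 ran from -1.49 to -0.52, and the 3 of Api5 from -1.64 to -0.45. Cntd1 rested on 1 kept probe set, with signals of 2089 and 4659 in tubules, where 19 of 24 meiotic markers lay below the filter. Its whole-testis signals were 6098.1 (W/Wv) and 1356.7 (XX/Sry). Whether the Cntd1 signal comes from meiotic cells was not tested in either preparation.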

How the results depend on the processing

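Each group had 1 array, so no array could be left out and no spread between replicates was measured. No paired analysis was possible because the groups compared hold 1 array each. The probe set counts of 662 higher and 570 lower, and the gene counts of 398 and 295, stayed within 1.5 times under median scaling, quantile normalisation and raising of dim signals to the bound. With arrays divided by spiked controls they were 2741 and 132 probe sets (95.4% higher, against 53.7%) and 1682 and 70 genes (96.0% higher, against 57.4%); that setting moves every ratio by 1 factor. With 50 added to each signal, lower probe sets were 345 and lower genes 188. With both arrays at or above their medians the counts were 354 and 305 probe sets and 221 and 171 genes, fewer features being tested. With no filter they were 2682 and 2737 probe sets and 1381 and 1268 genes, more dim features being tested. The granulosa median turned from -0.52 to 0.10 with spiked controls. The kallikrein median was 2.42 with 50 added and 2.17 with no filter; the cause of these and of the lower counts with 50 added was not tested. Of 98 named genes at 2-fold, 31 were under it in some setting, 19 of them without counting the spiked controls. With quantile normalisation Cldn4, Ctss, Herpud1, Igf1r and Igfbp5 fell under 2-fold, and with 50 added these and C1qc, Cd68, Cdc20, Emcn, Fdft1, Lum, Mcm7 and Sdf2l1 did.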

Other observations

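Further lists were described in the tubules. Of 17 kept genes for metals and zinc, 2 were 2-fold higher, 0 2-fold lower and 15 neither, at a median log2 ratio of -0.44 against -0.0032 for all genes: besides Slc39a8, Mt3, a metallothionein, had 122 in W/Wv and 543 in XX/Sry tubules (4.44-fold higher), while Mt1, a widely made metallothionein, had a log2 ratio of -0.87. Of 8 adipocyte markers, 2 were 2-fold higher, 0 2-fold lower and 6 neither, at a median of 0.62; Cd36, a fatty acid receptor, had 392 in W/Wv and 1165 in XX/Sry tubules (2.97-fold higher), and Scd1, a fatty acid desaturase, 368 in W/Wv and 1000.3 in XX/Sry tubules (2.72-fold higher). Of 24 genes of glutathione metabolism, 1 was 2-fold higher, 0 2-fold lower and 23 neither, the higher one being Gpx3, a secreted glutathione peroxidase, with 347 in W/Wv and 849 in XX/Sry tubules (2.45-fold higher). Of 21 genes of the endoplasmic reticulum, 1 was 2-fold higher, 1 2-fold lower and 19 neither, with Herpud1 at 1.01 (0.89 as the mean of its probe sets) and Sdf2l1 at -1.07. Of 17 genes for glycolysis and lactate, 1 was 2-fold higher, 0 2-fold lower and 16 neither, Pgk1 being the higher one at 1.20 (0.71 as the mean of its probe sets, under 2-fold); Pgk1 was also the one 2-fold gene among 12 reference genes. Of 5 granulosa genes, 0 were 2-fold higher, 1 2-fold lower and 4 neither, the lower one being Hsd17b1. Of 7 genes of X inactivation and escape, 1 was 2-fold higher, 0 2-fold lower and 6 neither, the higher one being Xist, at a median of 0.79. Few genes of the blood cell lists were kept: Hdc of the mast cell list, Ighm of the lymphocyte list and Alas2 of the haemoglobin list, the last 2.33-fold higher. The other genes of these lists on the array, 8, 10 and 3, lay below the filter. A single kept gene does not show that its cell type was present.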
